A study of Mus musculus with 15 samples.

Results

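The 5 genes described here encode proteins that tie actin filaments into bundles and that are not specific to muscle. They are Fscn1 (fascin 1), Pls3 (T-plastin), Lcp1 (L-plastin), Actn1 (alpha-actinin 1) and Actn4 (alpha-actinin 4), and they were taken by name from the 17447 genes of the count table. They were chosen by function and with earlier results of these same libraries in view, and the study names Fscn1 as one of several example genes from them. Every fold change and p-value of a member is therefore a description of these libraries and not independent evidence. All 5 passed the filter on low counts, which kept 13021 genes.

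RNA-sequencing was carried out on heart tissue of male C57BL/6J mice, with 3 libraries in each of 5 groups, taken 18 weeks after surgery. The paper does not say which part of the heart was used. WTSHAM mice were wild type, had a sham operation and are labelled with no virus. WTCKD and KOCKD mice had chronic kidney disease (CKD) from a stepwise removal of most of the kidney tissue and received an empty vector, and they were wild type and renalase knockout (rnls-/-), respectively. WTCKD + RNLS and KOCKD + RNLS mice had the same surgery and received AAV9-cTnT-RNLS, an adeno-associated virus that drives renalase from the cardiac troponin T promoter and hence in cardiomyocytes. Both the vector and the virus were injected into the tail vein in week 2, and the mice were 6 to 8 weeks old at the start. The knockout was made on the C57BL/6J strain with TALENs, engineered nucleases, aimed at exon 4 of Rnls. No knockout sham group and no sham group with vector were measured, so surgery and vector cannot be told apart in the comparison with WTSHAM. Renalase itself was not analysed here, so neither the knockout nor the virus could be checked in these libraries. The labels do not say in so many words that each library came from a separate mouse, and p-values measure the spread between these libraries.

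Actin filaments are the thin fibres that give a cell its shape and pull on its surroundings, and bundlers set how tightly and in what order they lie. Fascin packs filaments into the stiff parallel cores of filopodia, the finger-like protrusions of moving cells, and is found in endothelial, dendritic and neuronal cells more than in resting muscle. Plastins form tight bundles under calcium control, with L-plastin restricted to blood-derived cells and T-plastin to solid tissues. The non-muscle alpha-actinins hold stress fibres together at looser spacing and anchor them at focal adhesions, while their muscle relative Actn2 crosslinks actin at the Z-disc of the cardiomyocyte.

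The libraries held 10480788 to 13424078 counted reads, and each member had between 224 and 2289 of them in every library. Levels are given as counts per 1000000 counted reads (CPM), scaled with TMM factors of 0.925 to 1.05, and levels between genes are compared as the deposited FPKM, which also divides by gene length. The cardiomyocyte markers summed to 97103 to 131472 CPM and none of the 12 was at 0 in any library, whereas 5 of the lung markers had 7 or fewer counts and Sftpa1 had none. Over all genes, 5 libraries were closer to the mean of another group than to that of their own. Each library was left out of its own group's mean, which thus rested on fewer libraries than the other means. That works against the own group. WTSHAM replicate 1 was closest to WTCKD + RNLS. Replicate 3 of WTCKD and replicate 2 of its RNLS-treated counterpart were closest to KOCKD, and replicates 1 and 3 of KOCKD to WTCKD. The deposited names of WTSHAM replicate 1 and of all 6 RNLS-treated libraries begin with WM or RM in capitals. The other 8 names begin with wm in small letters in WTCKD, with s in KOCKD and with WT in WTSHAM replicates 2 and 3. What the names stand for, and whether capital and small letters differ in meaning, is not stated in the sources used here. An error in the label of WTSHAM replicate 1 was not tested. In heart tissue of mixed cell types, fewer cells of a type and less RNA per cell cannot be told apart.

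Compared per length, Actn4 was the most abundant member with a mean of 28.0 FPKM over the 15 libraries, followed by Pls3 at 20.1, Fscn1 at 16.2, Actn1 at 7.57 and Lcp1 at 6.79. Actn4 was the highest of the 5 in every library except KOCKD replicate 3, where Fscn1 was highest at 23.7 FPKM against 23.3 for Actn4. Fscn1 moved most within this order, since it was also the lowest of the 5 in WTSHAM replicate 1 at 8.37 FPKM. The highest library stood 3.14-fold above the lowest for Fscn1 and 2.81-fold for Lcp1, but 1.79-fold for Actn1, 1.53-fold for Pls3 and 1.49-fold for Actn4. The muscle paralog Actn2 lay far above all of them with a mean of 994 FPKM. The tissue-restricted paralogs of the members, Actn3, Pls1 and Fscn2, had at most 7 counts in any library and were not tested. Among the fascin and plastin genes of the table, the transcripts thus came almost wholly from Fscn1, Pls3 and Lcp1.

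**Figure D1:**
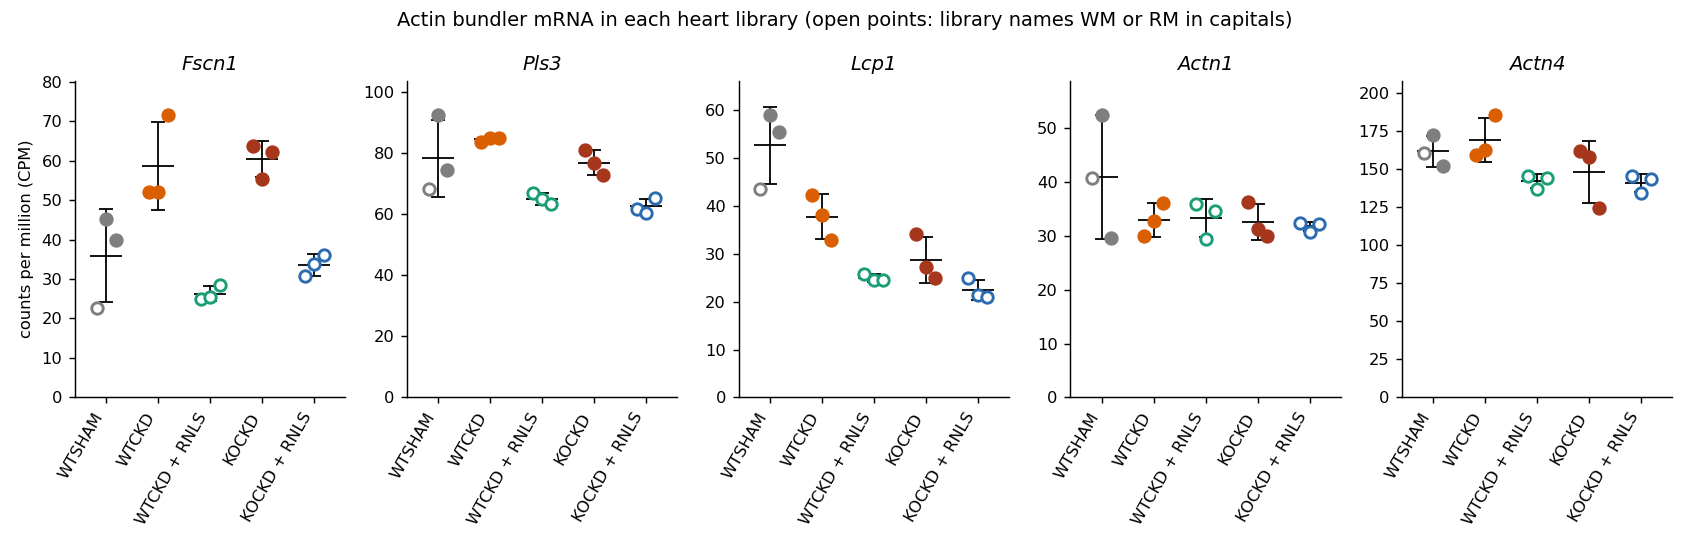
Each panel plots the CPM of one gene (y axis, from 0) in the 15 heart libraries by group (x axis), with the group mean and SD as a bar. Open points mark the 7 libraries whose names begin with WM or RM in capitals, and the WTCKD names, which begin with wm in small letters, are not among them. Fscn1 lay between 52.2 and 71.5 CPM in the vector-treated CKD groups and between 24.9 and 36.2 CPM in the RNLS-treated groups, while Actn1 overlapped between all groups.

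Fscn1 (ENSMUSG00000029581) lies at chr5:143722022-143734864 on the plus strand of mm9. Its only listed transcription start, in the RefSeq promoter table of GRCm38.p6, has the 250 bases of chr5:142960105-142960354 before it, shown because Fscn1 was one of the members called in both RNLS comparisons and because its window holds a rare element. The capitals mark TGACGTCA, the palindrome known as the cAMP response element, 45 bases before the start, and TATAAA, the TATA box, 31 bases before it.
Fscn1 promoter: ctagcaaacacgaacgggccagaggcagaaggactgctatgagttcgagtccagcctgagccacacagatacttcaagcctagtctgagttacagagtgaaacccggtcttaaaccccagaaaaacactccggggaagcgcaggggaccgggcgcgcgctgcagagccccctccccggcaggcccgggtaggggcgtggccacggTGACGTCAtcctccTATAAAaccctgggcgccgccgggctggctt
On either strand, TGACGTCA occurred in 1.56% and TATAAA in 12.3% of the 32536 promoter windows of this length. Neither motif occurred in a listed window of the other 4 members. The motifs were picked after the values were known, and a match is a description of letters, not a binding site.

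Fscn1 was highest in the 2 CKD groups that received vector and low in both groups that received RNLS. In WTSHAM it measured 22.8, 45.2 and 39.8 CPM in replicates 1, 2 and 3. In WTCKD it measured 52.2, 52.2 and 71.5 CPM, and in KOCKD 63.8, 55.3 and 62.3 CPM. In WTCKD + RNLS it measured 24.9, 25.5 and 28.4 CPM, and in KOCKD + RNLS 30.6, 33.8 and 36.2 CPM. Every RNLS-treated library thus lay below every vector-treated CKD library of either genotype. By group mean the order was KOCKD (60.4 ± 4.55 CPM, SD, n = 3), WTCKD (58.6 ± 11.2), WTSHAM (35.9 ± 11.7), KOCKD + RNLS (33.5 ± 2.78) and WTCKD + RNLS (26.3 ± 1.85). Neighbours in this order overlapped for KOCKD and WTCKD and for WTSHAM and KOCKD + RNLS, while the libraries of the 2 RNLS groups did not overlap.

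With RNLS, Fscn1 was 2.23-fold lower in wild-type hearts, a log2 fold change of -1.16 ± 0.19 (SE, adjusted p = 0.00372, edgeR quasi-likelihood test over all genes). In knockout hearts it was 1.80-fold lower, a log2 fold change of -0.85 ± 0.19 (adjusted p = 0.00758). The difference of the 2 effects was 0.30 on the log2 scale with a 95% interval from -0.25 to 0.86 (adjusted p = 0.58), so the genotypes were not shown to differ, and the interval covers both equal and clearly unequal effects. When any 1 of the 6 libraries compared was dropped, the call held, at log2 fold changes of -1.24 to -0.99 in wild-type and -0.91 to -0.79 in knockout hearts. Within CKD, every RNLS-treated library and no vector-treated one has a name in capital WM or RM, so treatment and this kind of name cannot be told apart. With a term for such names, which rests on WTSHAM replicate 1 against 2 and 3 and was added after seeing the data, the log2 fold changes were -0.26 in wild type (adjusted p = 0.737) and 0.05 in knockout hearts (adjusted p = 0.916). When letter case was ignored, the WTCKD and RNLS-treated libraries all had the same kind of name and KOCKD another. That term cancels from the wild-type comparison, so the log2 fold change of Fscn1 there had to stay at -1.16 (adjusted p = 6.6e-05). In knockout hearts both terms rest on the same sham libraries and give the same estimate, so 0.05 is not a second result. The difference of the effects was 1.21 (adjusted p = 0.0302) and rests on those sham libraries too.

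In WTCKD, Fscn1 measured 1.63-fold the WTSHAM level, a log2 fold change of 0.70 ± 0.18 that missed the threshold (adjusted p = 0.0573), and the groups did not overlap. The difference depended on which sham library was included. Without WTSHAM replicate 1, the one named WM, the log2 fold change was 0.47 ± 0.13 (adjusted p = 0.0756), and without WTSHAM replicate 2 it was 0.90 ± 0.19 and called (adjusted p = 0.0275). With the name term that ignores case it was 1.36 (adjusted p = 0.00115). Between KOCKD and WTCKD the log2 fold change was 0.04 ± 0.18 (adjusted p = 0.944), with a 95% interval from -0.34 to 0.43, and its sign turned when WTCKD replicate 1 or 2 was left out and with the name term that ignores case (-0.86, adjusted p = 0.105).

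Pls3 (ENSMUSG00000016382) lies at chrX:73030993-73120521 on the minus strand of mm9. Of its 3 listed transcription starts, the first has the 250 bases of chrX:75875183-75875432 on the minus strand of GRCm38.p6 before it, shown as the promoter of the other member called in both RNLS comparisons. The capitals mark GGAATG or its reverse complement CATTCC, the core bound by TEAD factors, and CCAAT, the core of the CCAAT box.
Pls3 promoter: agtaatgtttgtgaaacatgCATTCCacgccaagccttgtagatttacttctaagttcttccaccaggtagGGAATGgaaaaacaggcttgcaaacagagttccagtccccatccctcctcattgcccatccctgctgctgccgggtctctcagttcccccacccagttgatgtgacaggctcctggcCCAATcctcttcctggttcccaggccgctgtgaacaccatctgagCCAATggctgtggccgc
GGAATG occurred in 12.6% and CCAAT in 33.8% of all promoter windows on either strand, so neither is rare. The Fscn1 window held neither of them, and the Pls3 window held neither TGACGTCA nor TATAAA.

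Pls3 varied over a narrow range and was lowest in the RNLS-treated groups. It measured 68.1, 92.5 and 74.4 CPM in WTSHAM, 83.5, 84.9 and 84.9 CPM in WTCKD and 80.9, 76.9 and 72.8 CPM in KOCKD. It measured 67.1, 65.0 and 63.2 CPM in WTCKD + RNLS and 61.8, 60.5 and 65.3 CPM in KOCKD + RNLS. As for Fscn1, no RNLS-treated library reached the level of any vector-treated CKD library. The group means ran from 84.5 ± 0.81 CPM in WTCKD over 78.3 ± 12.6 in WTSHAM, 76.9 ± 4.05 in KOCKD and 65.1 ± 1.96 in WTCKD + RNLS to 62.5 ± 2.50 in KOCKD + RNLS (SD, n = 3 each). WTSHAM overlapped with both of its neighbours in this order, and the 2 RNLS groups overlapped with each other.

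Pls3 fell by 0.38 on the log2 scale with RNLS in wild-type hearts (SE 0.09, 1.30-fold lower, adjusted p = 0.0311, edgeR). In knockout hearts it fell by 0.30 (SE 0.09, 1.23-fold lower, adjusted p = 0.0415). These calls were close to the threshold, and leaving out 1 library ended them in 5 of 6 fits in wild type and in 6 of 6 fits in knockout hearts, while the log2 fold changes stayed between -0.40 and -0.35 and between -0.33 and -0.26. With the term for names in capitals the values were -0.08 and -0.01, and with case ignored -0.38 (adjusted p = 0.0118) and -0.01. As for Fscn1, the build of the term with case ignored fixed the wild-type value and made the knockout value the same. In CKD against sham the log2 fold change was 0.11 ± 0.09 (adjusted p = 0.599), and for KOCKD against WTCKD it was -0.14 ± 0.09 (adjusted p = 0.598), although the libraries of those 2 groups did not overlap.

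**Figure D2:**
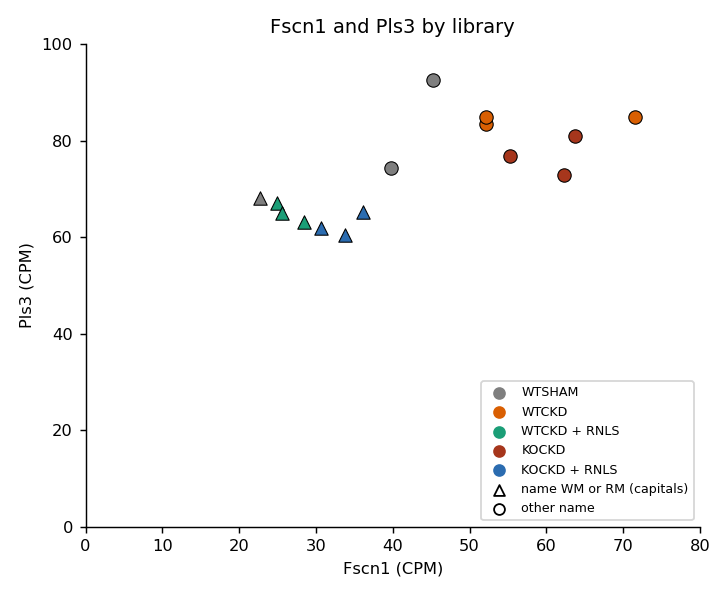
Each point is 1 heart library, with Fscn1 on the x axis and Pls3 on the y axis, both in CPM and from 0, coloured by group. Triangles are the 7 libraries named WM or RM in capitals, all at or below 36.2 CPM of Fscn1 and 68.1 CPM of Pls3, and circles the 8 others, WTCKD with its names in small wm included, all at or above 39.8 and 72.8 CPM.

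The levels of Fscn1 and Pls3 divided the libraries without overlap into those with names in capital WM or RM and the rest, which was noticed after their values were seen and holds only if small wm is kept apart. Fscn1 lay between 22.8 and 36.2 CPM in the 7 libraries so named and between 39.8 and 71.5 CPM in the other 8. Pls3 lay between 60.5 and 68.1 CPM in the first and between 72.8 and 92.5 CPM in the second. In each case WTSHAM replicate 1, which received no RNLS, fell on the side of the RNLS-treated libraries. Of all genes tested, 209 (1.61%) divided in this way, 104 of them lower in the libraries with such names. Lcp1, Actn1 and Actn4 did not. Over the 15 libraries the Pearson correlation of log2 CPM between Fscn1 and Pls3 was 0.74, given as a description of libraries that share groups and names.

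Lcp1 (ENSMUSG00000021998) lies at chr14:75530908-75630649 on the plus strand of mm9. It was highest in sham hearts and stepped down through the vector-treated to the RNLS-treated groups, a different order from that of Fscn1. It measured 43.4, 58.9 and 55.3 CPM in WTSHAM and 42.2, 38.1 and 32.8 CPM in WTCKD. In KOCKD it measured 34.0, 27.2 and 24.9 CPM, in WTCKD + RNLS 25.8, 24.4 and 24.6 CPM, and in KOCKD + RNLS 24.9, 21.3 and 21.0 CPM. The sham libraries stood above all others, whereas the 3 groups at the low end lay close together. The means were 52.6 ± 8.11 CPM in WTSHAM, 37.7 ± 4.68 in WTCKD, 28.7 ± 4.75 in KOCKD, 24.9 ± 0.75 in WTCKD + RNLS and 22.4 ± 2.14 in KOCKD + RNLS (SD, n = 3 each). WTSHAM and WTCKD did not overlap, and each later pair of neighbours did.

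Lcp1 fell by 0.60 on the log2 scale with RNLS in wild-type hearts (SE 0.14, 1.51-fold lower, adjusted p = 0.02, edgeR), and leaving out 1 library ended the call in 4 of 6 fits, with values from -0.69 to -0.51. In knockout hearts the log2 fold change was -0.36 ± 0.14 (adjusted p = 0.0887), and the lowest KOCKD library, at 24.895 CPM, lay just above the highest KOCKD + RNLS library, at 24.864 CPM. Their effects differed by 0.24, with a 95% interval from -0.17 to 0.65 (adjusted p = 0.552). In WTCKD against WTSHAM the log2 fold change was -0.48 ± 0.13 (adjusted p = 0.0696), and in KOCKD against WTCKD it was -0.39 ± 0.14 (adjusted p = 0.444). Without WTSHAM replicate 1 the first of these was -0.60 (adjusted p = 0.02). With the term for names in capitals, the RNLS values were -0.20 in wild type (adjusted p = 0.788) and 0.04 in knockout hearts (adjusted p = 0.93). With case ignored they were -0.60 (adjusted p = 0.00787) and 0.04, again fixed by how that term is built.

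Actn1 (ENSMUSG00000015143) lies at chr12:81268529-81361358 and Actn4 (ENSMUSG00000054808) at chr7:29678267-29747359, both on the minus strand of mm9. Actn1 spread most within WTSHAM, with 40.7, 52.4 and 29.6 CPM. It measured 29.9, 32.8 and 36.2 CPM in WTCKD, 36.0, 29.3 and 34.5 CPM in WTCKD + RNLS, 36.2, 31.3 and 30.0 CPM in KOCKD and 32.3, 30.7 and 32.1 CPM in KOCKD + RNLS. All groups overlapped, and outside WTSHAM the 12 libraries lay between 29.3 and 36.2 CPM. The means were 40.9 ± 11.4 CPM in WTSHAM, 33.3 ± 3.49 in WTCKD + RNLS, 33.0 ± 3.12 in WTCKD, 32.5 ± 3.29 in KOCKD and 31.7 ± 0.90 in KOCKD + RNLS (SD, n = 3 each), and no neighbours in this order differed beyond their spread. The log2 fold change of Actn1 was 0.02 with RNLS in wild type (95% interval -0.32 to 0.35, adjusted p = 0.972, edgeR) and -0.03 in knockout hearts (-0.37 to 0.30, adjusted p = 0.904). Both signs turned when single libraries were left out. In CKD against sham it was -0.31 ± 0.16 (adjusted p = 0.313) and ranged from -0.50 without WTSHAM replicate 3 to -0.09 without WTSHAM replicate 2.

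Actn4 was the steadiest member. It measured 160.3, 172 and 152 CPM in WTSHAM and 159, 162 and 185 CPM in WTCKD. In KOCKD it measured 162, 158 and 124 CPM, in WTCKD + RNLS 145, 137 and 144 CPM and in KOCKD + RNLS 145, 134 and 143 CPM. Every WTCKD + RNLS library lay below every WTCKD library, while the knockout groups overlapped because KOCKD replicate 3 was the lowest of all. The means were 169 ± 14.2 CPM in WTCKD, 161 ± 10.1 in WTSHAM, 148 ± 20.4 in KOCKD, 142 ± 4.53 in WTCKD + RNLS and 141 ± 5.99 in KOCKD + RNLS (SD, n = 3 each), and each pair of neighbours overlapped. The log2 fold change with RNLS was -0.25 ± 0.10 in wild type (adjusted p = 0.154, edgeR) and -0.07 ± 0.10 in knockout hearts (adjusted p = 0.655). It was 0.07 ± 0.10 in CKD against sham (adjusted p = 0.781) and -0.19 ± 0.10 in KOCKD against WTCKD (adjusted p = 0.502).

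**Figure D3:**
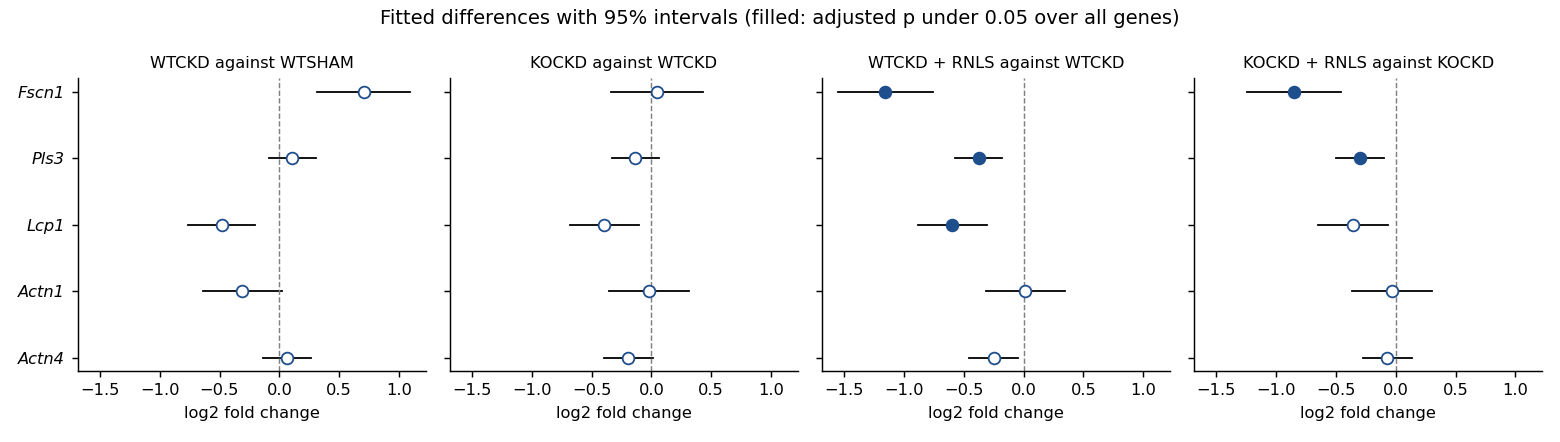
Each panel gives one comparison, with the log2 fold change of the 5 members on the x axis, its 95% interval as a line, and filled points for an adjusted p under 0.05 over all genes tested. The filled points are Fscn1, Pls3 and Lcp1 with RNLS in wild-type hearts, at -1.16, -0.38 and -0.60, and Fscn1 and Pls3 in knockout hearts, at -0.85 and -0.30.

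Counted over the members, 3 of 5 passed an adjusted p of 0.05 with RNLS in wild-type hearts, where 4.47% of all genes did, and 2 of 5 in knockout hearts, where 16.1% did. All of these were lower with RNLS. In CKD against sham edgeR called 0 of 5, with 2.3% of all genes called. There, 2 members had an unadjusted p under 0.05, and DESeq2 called both of them, Fscn1 and Lcp1. In KOCKD against WTCKD edgeR called 0 of 5 and 0% of all genes, Lcp1 alone had an unadjusted p under 0.05, and DESeq2 called none of the 5. For the interaction of RNLS with genotype edgeR also called 0 of 5 and 0% of all genes, with none of the 5 at an unadjusted p under 0.05 and none called by DESeq2. At the study's threshold of a log2 fold change over 0.32 in either direction and an unadjusted p under 0.05, the members passing were 2 in CKD against sham (11.3% of all genes), 3 with RNLS in wild type (14.4%), 2 with RNLS in knockout hearts (22.3%), 1 in KOCKD against WTCKD (5.62%) and 0 for the difference of effects (15.2%). Groups that did not overlap were found for 2 members in CKD against sham (22.5% of all genes), 4 and 3 with RNLS in wild-type and knockout hearts (21.2% and 40.6%), and 1 in KOCKD against WTCKD (19.3%). The comparisons share libraries, since WTCKD served in 3 and KOCKD in 2 of those between 2 groups. Both also served in the difference of effects, so the comparisons are not independent of one another. The median log2 fold change of the members was -0.38 in wild type and -0.30 in knockout hearts, against 0.01 and -0.01 over all genes tested.

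Cell type markers moved with some of these values. The 20 leukocyte markers, several of which mark the macrophages that also make L-plastin, summed to 689 to 888 CPM in WTSHAM, 523 to 705 in WTCKD, 479 to 515 in WTCKD + RNLS, 494 to 569 in KOCKD and 356 to 448 in KOCKD + RNLS. Lcp1 amounted to 6.30% to 6.81% of this sum in WTSHAM, 5.50% to 6.28% in WTCKD, 5.003% to 5.13% in WTCKD + RNLS, 4.78% to 6.14% in KOCKD and 5.55% to 5.997% in KOCKD + RNLS. The share thus did not overlap between WTCKD and WTCKD + RNLS, where Lcp1 was called, and did overlap between the knockout groups. The log2 level of Lcp1 had a Pearson correlation of 0.96 with the log2 of this sum over the 15 libraries, and of 0.88 with that of the fibroblast markers. Of the 19 leukocyte markers tested, edgeR called 0 with RNLS in wild type (10 at an unadjusted p under 0.05), where 4.47% of all genes were called. In knockout hearts it called 4 lower (21.1%, against 16.1% of all genes). No leukocyte marker was at 0 in any library, and the part of these cells in the Lcp1 values was not tested.

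The 12 endothelial markers summed to 1620 to 1820 CPM in WTSHAM, 1695 to 1938 in WTCKD, 1350 to 1504 in WTCKD + RNLS, 1558 to 1776 in KOCKD and 1548 to 1565 in KOCKD + RNLS. With RNLS, 5 of the 12 were called lower in wild type (41.7%, against 4.47% of all genes). In knockout hearts 3 were called lower and 1 higher (33.3%, against 16.1%). Fscn1 did not keep a fixed share of this sum. It made up 2.94% to 3.69% of it in WTCKD and 3.11% to 3.997% in KOCKD, but 1.66% to 1.99% in WTCKD + RNLS and 1.96% to 2.33% in KOCKD + RNLS, with no overlap between vector and RNLS in either genotype. The share of Pls3 overlapped between WTCKD (4.38% to 5.01%) and WTCKD + RNLS (4.42% to 4.82%), but was 4.33% to 4.91% in KOCKD and 3.90% to 4.21% in KOCKD + RNLS, without overlap. Actn4 lay between 7.98% and 10.1% over all libraries. The Pearson correlation of log2 level with this log2 sum over the 15 libraries was 0.71 for Fscn1, 0.81 for Pls3 and 0.80 for Actn4. For Fscn1 it was 0.20 with the fibroblast sum and -0.36 with the sum of the pericyte and smooth muscle markers. Fibroblast marker sums ran from 3098 to 4446 CPM in WTSHAM, 2551 to 4127 in WTCKD, 1954 to 2787 in WTCKD + RNLS, 2261 to 3079 in KOCKD and 2270 to 2604 in KOCKD + RNLS. The 12 activated fibroblast markers summed to 371 to 685 CPM in WTSHAM, 351 to 471 in WTCKD and 287 to 298 in WTCKD + RNLS. In CKD against sham 2 of the 11 tested went up and 9 went down, and edgeR called 0, against 2.3% of all genes. The sums did not overlap between WTCKD and WTCKD + RNLS, and with RNLS 2 of the 11 were called lower (18.2%). In knockout hearts their sums overlapped, at 287 to 512 in KOCKD and 266 to 347 in KOCKD + RNLS, and 4 of the 11 were called lower (36.4%). Cardiomyocyte sums were higher with RNLS without overlap, at 98503 to 114315 CPM in WTCKD and 121089 to 131472 in WTCKD + RNLS. The same held for the knockout sums, at 100952 to 107844 in KOCKD and 114219 to 116548 in KOCKD + RNLS. By single gene, 10 of the 12 cardiomyocyte markers went up and 2 went down in wild type, with 2 called higher. Only 5 went up and 7 went down in knockout hearts, with 3 called higher. The higher knockout sum thus did not stand for a rise of most of these markers. Atrial sums ran from 197 to 1316 CPM within WTSHAM, 141 to 2591 within WTCKD and 162 to 2728 within KOCKD. They ran from 170 to 562 CPM in WTCKD + RNLS and from 190 to 345 in KOCKD + RNLS. With RNLS, all 7 atrial markers tested went down in wild type, with 0 called, against 4.47% of all genes. In knockout hearts 5 went down and 2 went up, with 3 called lower (42.9%, against 16.1%). The part of these cells and of atrial tissue in the values of the members was not tested.

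**Figure D4:**
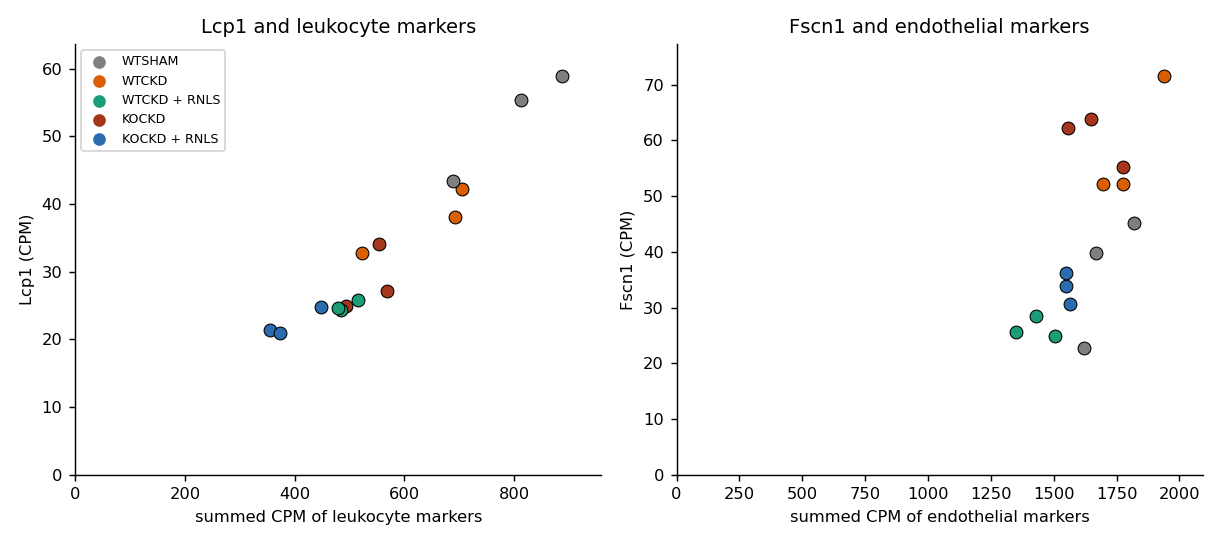
Each point is 1 heart library coloured by group, with Lcp1 against the summed leukocyte markers on the left and Fscn1 against the summed endothelial markers on the right, all axes in CPM from 0. Lcp1 made up 4.78% to 6.81% of the leukocyte sum over all libraries. Fscn1 spread from 22.8 to 71.5 CPM over an endothelial sum of 1350 to 1938 CPM, with a Pearson correlation of 0.71 in log2.

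The genes most like each member were taken by Pearson correlation of log2 CPM over the 15 libraries among 11726 genes, and the values describe these libraries and their groups. For Fscn1 they were Trp53i11 (0.94), Txnip (0.93), Septin4 (0.91), Wnt5b (0.91) and Ift81 (0.90). For Pls3 they were Rflnb (0.94), Cmtm3 (0.92), Creb3l1 (0.91), Slc41a3 (0.90) and Tpm4 (0.90), of which Tpm4 encodes a non-muscle tropomyosin. For Lcp1 they were the collagen genes Col1a2 (0.96) and Col5a2 (0.95), the macrophage receptor gene Folr2 (0.95), Adamts2 (0.95), whose product trims procollagen, and Arpc1b (0.95), an Arp2/3 subunit. For Actn1 the likeness was lower, with Sumf2 (0.80), Flna (0.78), Tgfb3 (0.76), Slco2b1 (0.76) and Niban2 (0.74). For Actn4 they were Cald1 (0.85), Tmem184b (0.84), Tbc1d9 (0.83), Lasp1 (0.82) and Zfp105 (0.82), among which Cald1 (caldesmon) and Lasp1 encode actin-binding proteins. Among the members themselves the correlation was highest for Fscn1 with Pls3 (0.74) and Pls3 with Actn4 (0.74), and it was 0.22 for Fscn1 with Lcp1.

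The wider actin machinery was followed in 8 lists with 163 genes, the paralogs included, of which 155 were tested. In CKD against sham 3 of them passed an adjusted p of 0.05 (1.94% of those tested, against 2.3% of all genes). Of these, Twf2 was higher and Ssh2 and Dst were lower. In KOCKD against WTCKD edgeR called 0, as did DESeq2. With RNLS in wild-type hearts 2 were called higher and 9 lower (7.10% of those tested, against 4.47% of all genes). In knockout hearts 17 were called higher and 18 lower (22.6%, against 16.1%). The 7 genes called in both made up 63.6% of the wild-type and 20% of the knockout calls, and all 7 had the same direction in these comparisons. With the term for names in capitals 1 gene was called in wild type, where 0.246% of all genes were, and 8 in knockout hearts, where 3.41% were. With case ignored, 16 were called in wild type, where 6.13% of all genes were, and the same 8 in knockout hearts, where both terms give the same estimate.

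Lower in both genotypes were Actb, Cfl1, Tagln2, Tmsb10, Tpm4 and Twf2. Actb (beta-actin, the monomer of non-muscle filaments) went from 481 ± 18.5 CPM in WTCKD to 317 ± 11.9 in WTCKD + RNLS and from 439 ± 42.3 in KOCKD to 305 ± 20.8 in KOCKD + RNLS (SD, n = 3), with log2 fold changes of -0.60 and -0.53. Tpm4, the tropomyosin named above, fell by 0.53 and 0.60, and Tmsb10, a thymosin that holds actin monomers, fell by 0.60 and 0.70. Cfl1 (cofilin, which severs filaments) fell by 0.29 and 0.40, and Twf2 (twinfilin, a capping protein) by 0.51 and 0.42. In CKD against sham Twf2 had risen by 0.42. The phosphatase gene Ssh2, whose product activates cofilin, ran the other way and rose by 0.55 and 0.52 on the log2 scale, against a log2 fold change of -0.51 in CKD against sham.

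By list, 2 of 41 other bundlers and crosslinkers were called with RNLS in wild type, both lower, and 11 in knockout hearts, of which 7 were higher and 4 lower. These were 4.88% and 26.8% of the list, against 4.47% and 16.1% of all genes. Stress fibre and focal adhesion genes had 12.5% and 25% called. Of 23 actin turnover and capping genes, 4 were called in wild type and 7 in knockout hearts (17.4% and 30.4%). Of 6 actin monomer genes, 1 and 2 were called, all lower (16.7% and 33.3%). In knockout hearts the shares of the filopodium (11.1%), Arp2/3 (13.6%) and SRF and YAP (16.7%) lists were near or below that of all genes. Palld (palladin), Sptbn1 (a spectrin) and Dst (dystonin, a giant linker) were among the higher ones in knockout hearts, at log2 fold changes of 0.56, 0.59 and 0.84. Filopodium genes, the list closest to the known role of fascin, had 0 of 18 called by edgeR in wild type (5 at an unadjusted p under 0.05) and 2 higher in knockout hearts, Diaph2 at 0.79 and Myo10 at 0.37. Of the 22 genes of the Arp2/3 complex and its activators, which make branched networks in place of bundles, edgeR called 0 in wild type (6 at an unadjusted p under 0.05), and in knockout hearts Arpc3 and Arpc4 fell by 0.37 and 0.43 while Cyfip2 rose by 0.28. Stress fibre and focal adhesion genes had 1 higher and 3 lower of 32 in wild type and 3 higher and 5 lower in knockout hearts. Rock1 and Tns1 were among the higher ones, at 0.49 and 0.43, and Tpm2 among the lower ones at -0.83. Of the 12 SRF and YAP regulators edgeR called 0 in wild type (2 at an unadjusted p under 0.05), and 2, Tead1 at 0.46 and Mrtfb at 0.55, were higher in knockout hearts.

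The direction in knockout hearts went with gene length. The 17 genes called higher had a median length of 11137 bases, the 18 called lower one of 1444, and all 155 tested one of 3622. Among the 9 called lower in wild type it was 1907 bases. Offsets that removed each library's smooth trend on length, added after seeing the data, gave 10 called of the 155 in knockout hearts, where 5.45% of all genes were called, and 19 in wild-type hearts, where 5.67% were. Under them the log2 fold changes of Fscn1, whose length behind the FPKM is 2667 bases, were -1.14 and -0.78 and remained called in both comparisons. The part of RNA quality or library preparation in this relation was not tested.

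**Figure D5:**
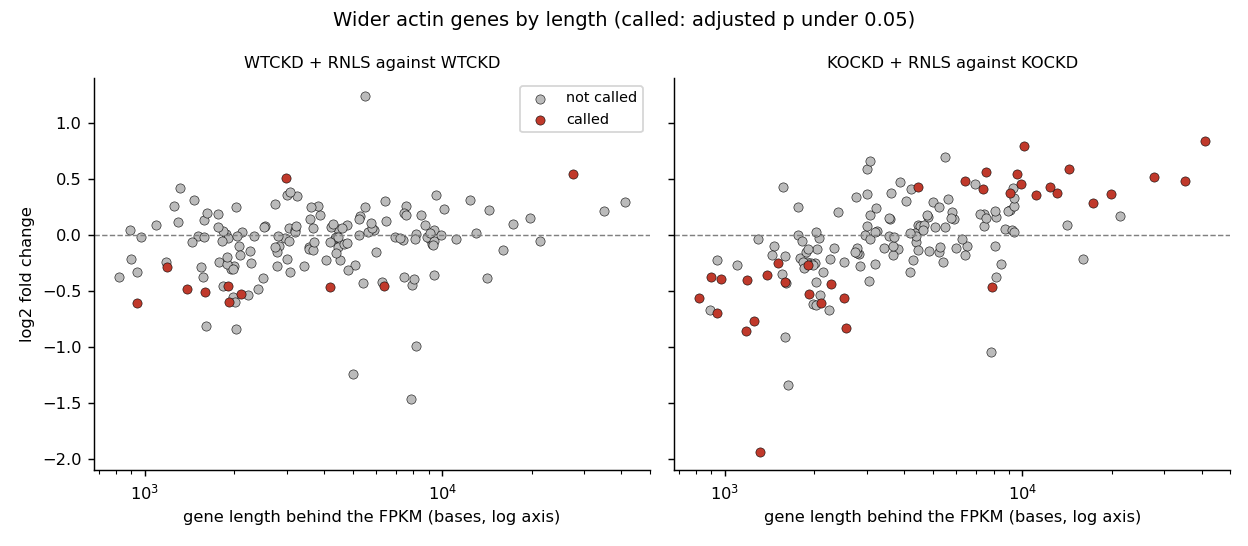
Each point is 1 of the 155 wider actin genes, with its length in bases on a logarithmic x axis and its log2 fold change with RNLS on the y axis, in wild-type (left) and knockout hearts (right). Genes with an adjusted p under 0.05 are filled in red, and in knockout hearts the 17 higher ones lie at a median of 11137 bases and the 18 lower ones at 1444.

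The members are related in sequence, and reads could in principle be split between them. Over the annotated coding sequences Actn1 and Actn4 were 80.5% identical, with a longest shared run of 65 bases, and Pls3 and Lcp1 were 74.8% identical, with a longest run of 24 bases. Actn2, which had at least 30686 counts in every library, was 77.3% identical to Actn1 and 77.0% to Actn4, with longest runs of 38 and 29 bases. These runs are shorter than the reads of the study. Actn4 shares 338 exon bases with Capn12 on the opposite strand, which had at most 19 counts, and Lcp1 shares 311 and 219 exon bases with the antisense genes Gm15628 and Gm15629. The strand option of the counting is not given in the sources used here, so reads of such overlaps cannot be assigned to either gene.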

How the data were processed

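Heart libraries were grouped by the labels' genotype and treatment. The authors trimmed reads with Trimmomatic, mapped them with HISAT2 and counted them with HTSeq. The deposited counts are whole and not normalized. The deposited FPKM, by Cufflinks per the labels, equalled the counts divided by a fixed length and the library total for all 13021 genes checked. The labels name GRCm39 and the supplement mm9, and versions, annotation and strand option are not given in the sources used here. The kit was a stranded mRNA kit, and which of the sequencers named by the study ran each library is not given. Gene positions are those of the mm9 GENCODE annotation, which holds 15048 of the 17447 symbols, and promoters those of RefSeq (GRCm38.p6), where all 5 members matched.

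Counts were tested with R 4.3.3 and edgeR 4.0.16 (limma 3.58.1): TMM scaling, a filter at 10 counts (15 in total), and a quasi-likelihood fit of the group over all 15 libraries, with Benjamini-Hochberg adjustment over 13021 genes. Intervals are 95% intervals of the fit. For a single gene, an exact permutation test of 3 against 3 libraries cannot go below 0.1 and was not used. Python 3.11.15 with numpy 2.4.6, pandas 2.3.3, matplotlib 3.10.9 and Biopython 1.88 served for tables, figures and alignments. The fit was tested on simulated data. The alternatives were no filter, RLE size factors, DESeq2 1.42.0, a replicate block, only the libraries compared, each library left out, the study's threshold and FPKM in place of CPM. The 2 terms for names and the offsets for gene length were added after seeing the data. Replicates of a group differed by more than sampling noise.

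The members and lists were chosen with earlier results of these data known. Named were all members, their paralogs, from each wider list at most 4 genes of smallest adjusted p among those called in an RNLS comparison, and the 5 genes most like each member with an average log2 CPM over 1.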

Additional observations from a re-analysis of the deposited data

Results flagged for a closer look

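Actg2, the smooth muscle gamma-actin gene and one of the wider actin genes, stood out because its RNLS-treated libraries lay above the mean of their controls in wild-type and below it in knockout hearts. Its counts were low, at 8, 14 and 20 in WTCKD, 18, 22 and 18 in WTCKD + RNLS, 42, 21 and 13 in KOCKD and 10, 3 and 7 in KOCKD + RNLS. Every WTCKD + RNLS library lay above the mean log2 CPM of WTCKD and every KOCKD + RNLS library below that of KOCKD. The mean effect in knockout minus that in wild-type hearts was -2.067 on the log2 scale. In the edgeR fit the log2 fold change was 0.42 ± 0.56 in wild type (adjusted p = 0.744) and -1.94 ± 0.61 in knockout hearts (adjusted p = 0.04), and their difference of -2.36 did not pass the threshold (adjusted p = 0.18). No outlier search was made, since each group has 3 libraries.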

How the results depend on the processing

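The Fscn1 calls in both RNLS comparisons held under every alternative except the terms for names. The term for names in capitals, added after seeing the data and resting on WTSHAM replicate 1 against 2 and 3, gave Fscn1 0.049 and Lcp1 0.039 in knockout hearts, with 0 members called in either RNLS comparison, 1 (Lcp1) in CKD against sham, and 1 and 8 wider actin genes in wild-type and knockout hearts. The term with letter case ignored, also added later, cancels from the wild-type log2 fold changes and left the Fscn1 call there. In knockout hearts it gives the same estimates as the first term by design, hence the same 0.049 and 0.039, with 0 members and 8 wider genes called. It called 1 member (Fscn1) in CKD against sham and 1 (Fscn1) for the difference of effects, gave Fscn1 -0.86 in KOCKD against WTCKD, and called 1 wider gene in that comparison and 1 for the difference of effects. Of all genes it called 2.07% in CKD against sham, 0.561% in KOCKD against WTCKD and 1.59% for the difference of effects. Members called in CKD against sham were 1 (Fscn1) without the filter, 2 with DESeq2 and 2 at the study's threshold, which also called 1 (Lcp1) in KOCKD against WTCKD. Members called with RNLS in knockout hearts were 1 (Fscn1) without the filter and with length offsets. With the replicate block, 1 member (Fscn1) was called in CKD against sham and 1 (Fscn1) with RNLS in knockout hearts, and no other call of a member changed. The numbers did not pair the libraries, since the deviations of same-numbered libraries correlated over 0.1 in 5 of 30 pairs and 4 of 15 libraries correlated best with their own number. Leaving out single libraries gave 0 to 1 members called in CKD against sham (0 to 1 because of WTSHAM replicates 1 and 2), 1 to 3 with RNLS in wild type and 1 to 1 in knockout hearts. Wider actin genes called ranged from 1 to 4, 3 to 17 and 19 to 33 in these comparisons. Of all genes, the same fits called 1.03% to 2.88%, 1.59% to 5.77% and 6.53% to 11.2%. Their counts were 9, 23 and, for the difference of effects, 5 with DESeq2. Of all genes DESeq2 called 4.55% in CKD against sham, 6.27% with RNLS in wild type and 5.55% for that difference. With only the libraries compared, 1 wider gene was called in CKD against sham, where 0.777% of all genes were. With length offsets 19 and 10 were called in wild-type and knockout hearts, against 5.67% and 5.45% of all genes. At the study's threshold 14 were called in CKD against sham and 30 with RNLS in wild type, against 11.3% and 14.4% of all genes. It also called 6 in KOCKD against WTCKD and 20 for the difference of effects, against 5.62% and 15.2%. Over all genes DESeq2 called 362 for that difference and 9 for KOCKD against WTCKD, where edgeR called 0 with 2288 and 1318 at an unadjusted p under 0.05.

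Signs turned for small differences. With length offsets Actn1 was 0.017 in KOCKD against WTCKD. With single libraries left out, Actn1 ranged from -0.055 to 0.083 with RNLS in wild type, from -0.087 to 0.049 in knockout hearts, from -0.11 to 0.0496 in KOCKD against WTCKD and from -0.12 to 0.038 for the difference of effects, Fscn1 from -0.038 to 0.21 in KOCKD against WTCKD, and Actn4 from -0.0025 to 0.11 in CKD against sham. The log2 ratio of group means of Pls3 with RNLS in wild type was -0.45 in the deposited FPKM, which, unlike the CPM, are not scaled with TMM factors. With 3 libraries a group, Pls3 and Lcp1 stood too near the threshold for their calls to be stable. The causes of these changes were not tested.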
